A study of Mus musculus with 16 samples.

Results

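The early-response-high cells described here are the 96 single germinal center (GC) B cells, of 637 sequenced, in which transcripts of genes induced within minutes to hours of B cell receptor (BCR) engagement were highest. They were chosen by the counts themselves. For each cell the counts of *Nr4a1*, *Egr1*, *Egr2*, *Egr3* and *Cd69* were divided by the total of the cell and scaled to CPM (counts per 1e6 counts), the 5 values of log2(CPM + 1) were averaged, and the 15% of cells with the highest average were taken. The other 541 cells of the same hosts are the comparison. Because these 5 genes selected the cells, their levels are given only as a description, they are left out of the comparison of other genes, and the share of cells selected in each host is itself a measure of these 5 genes.

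The cells are light zone (LZ) GC B cells, sorted singly from popliteal lymph nodes and sequenced over the whole transcriptome by SMART-seq2. Hosts were male C57BL/6J or B6.SJL mice, primed with ovalbumin (OVA) at 6 to 8 weeks of age. Weeks later they were given B cells and then boosted with NP-OVA, a hapten-coupled form of OVA, 7 days before collection. The hosts were therefore older at collection than at priming. Each host had received B1-8hi BTKC481S and B1-8hi BTKWT B cells together. The B1-8hi heavy chain gives B cells strong binding to NP. The paper also shows labelling of these single cells by NP-Eα, a tracker antigen that carries NP and a peptide for presentation. The text seen here does not state when the tracker was given in this experiment. Acalabrutinib does not block the C481S form of Bruton's tyrosine kinase (BTK). Of 8 hosts, 5 were given acalabrutinib by mouth (A7, A8, A10, A11 and A12) and 3 were given vehicle (V5, V7 and V9), as 3 doses of which the last was at 12 h, and cells were sorted at 14 h. The labels list 16 samples, 2 genotypes in each of 8 hosts, but the name of a cell gives only its host, plate and well, so the genotypes of a host were pooled and the host was the replicate. Acalabrutinib blocks BTK only in the BTKWT cells of a host, so a host given the drug holds both blocked and unblocked cells. The cells came from 2 independent experiments that could not be assigned to hosts here, so experiment and treatment cannot be told apart.

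When antigen binds the BCR, the kinases LYN, SYK and BTK activate phospholipase Cγ2, and calcium, protein kinase C and MAP kinase signals follow. These switch on immediate-early genes, among them the zinc finger factors of the EGR family and the nuclear receptor NR4A1, and release NF-κB. In GCs, B cells capture antigen in the LZ and present it to T follicular helper cells, whose CD40 ligand also activates NF-κB and MYC. CD69 is an early activation antigen that retains lymphocytes in tissue. The EGR genes, *Nr4a1* and *Cd69* can be induced by other signals as well, so the selection names a transcriptional state and not its source.

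Most early-response-high cells had counts of only 2 of the 5 genes. *Egr1* had a count in 75 of the 96 cells (78.1%), *Cd69* in 48 (50%), *Egr2* in 46 (47.9%), *Nr4a1* in 25 (26.0%) and *Egr3* in 9 (9.38%). Of the 96 cells, 14 had counts of 1 of the 5 genes, 59 of 2, 21 of 3 and 2 of 4. The most frequent combinations were *Egr1* with *Cd69* and *Egr1* with *Egr2*, in 19 cells each. Among the other cells, 367 of 541 (67.8%) had no count of any of the 5, and *Egr1* had a count in 63 (11.6%). The selection therefore divides cells by detected transcripts of a few genes.

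Scores formed a range and not a separate population. They ran from 1.97 to 6.78 in the selected cells, with a median of 3.34, and the highest score among the other cells was 1.97 as well (1.9716 against 1.9685). The 5th lowest selected cell scored 1.99 and the 5th highest unselected cell 1.94. Within 0.1 of the lowest selected score lay 17 selected and 23 other cells.

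**Figure D1:**
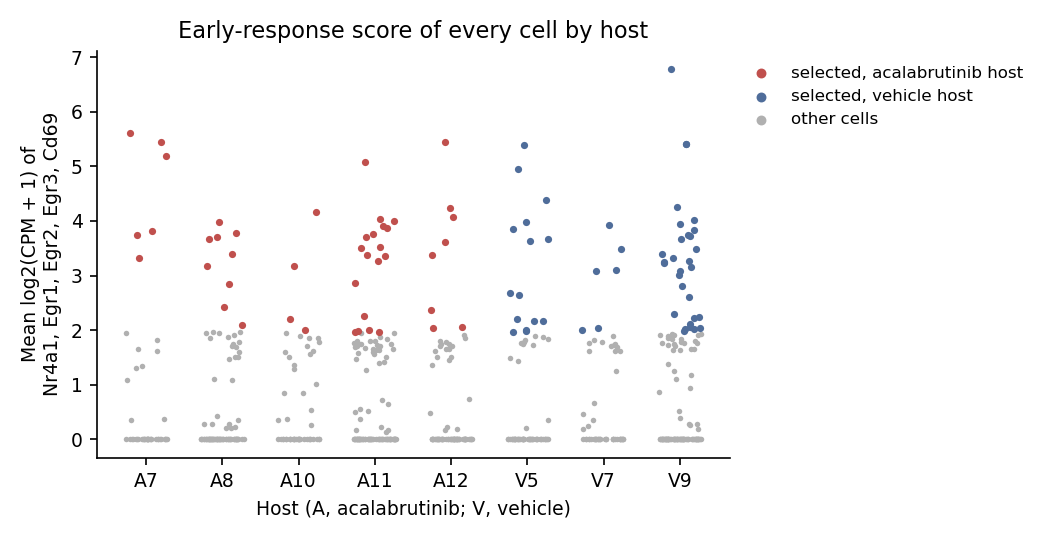
Mean log2(CPM + 1) of the 5 selecting genes (y axis) in every cell, by host (x axis); each point is 1 cell, coloured where selected. Scores of selected cells run from 1.97 to 6.78, cells just above and just below the limit are close together, and 367 of the 541 other cells lie at 0.

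The selected cells were GC B cells by the same markers as their neighbours. *Cd79a*, a signaling chain of the BCR, had a count in all 96 cells (100%) and 99.4% of the others, at 689.7 and 724.2 CPM on average over the 8 hosts. *Pax5*, the B lineage factor, stood at 959.2 and 975.6 CPM, and *Fas*, which GC B cells carry, at 282.8 and 279.0 CPM. Of 10 B cell markers 9 could be tested and none was called. *Ms4a1*, which encodes CD20 and which B cells express, is listed at 0 in every cell, which removes it as a check.

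Markers of other cell types were counted in both classes, some of them in many cells. Of the T cell receptor genes *Cd3e* had a count in 1.04% of selected cells, *Cd3d* in 1.04% and *Trac* in 2.08%, against 0%, 1.11% and 2.77% of the others. The 12 T cell markers summed to 200.4, 370.3 and 934.9 CPM in selected cells (lowest, median and highest host) and to 182.3, 297.9 and 378.0 in the others, higher in 5 of 8 hosts. The most abundant of them was *Lck*, at 380.8 and 255.4 CPM, with counts in 60.4% and 50.1% of cells, and its mean per cell was higher in selected cells by 1.88 ± 2.34 (SD, n = 8 hosts), in 6 of 8 hosts (adjusted p = 0.407, edgeR). *Icos* was at 0 in the selected cells. The 11 myeloid markers summed to a median of 19.99 CPM against 39.7, with *Cd68* highest (10.5 against 22.2 CPM) and *Csf1r* and *Tyrobp* at 0 in the selected cells (2.59% and 0.739% of the others had a count). *Adgre1*, which encodes F4/80, was counted in 34.4% and 38.8% of cells at 1.79 and 9.40 CPM, lower in the sums of 8 of 8 hosts (adjusted p = 0.222). *Itgam*, *Cd14* and *S100a8* are listed at 0 in every cell and check nothing. The 10 NK and stromal markers summed to a median of 105.7 CPM against 117.2, with *Pecam1* highest (130.7 against 134.5 CPM, counted in 47.9% and 53.6% of cells). *Klrb1c*, *Prf1*, *Col1a2* and *Clu* were at 0 in the selected cells (0.37%, 0.55%, 0.74% and 0.18% of the others had a count). The part of these markers of other cell types in the results was not tested.

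Depth differed between selected and other cells by less than the spread between hosts. The median selected cell had 846932 counts and 4074 genes, and the median other cell 783003 counts and 3980 genes. Per host, the median count was 15421 higher in selected cells on average (SD 142410, n = 8 hosts), higher in 3 of 8 hosts (exact two-sided sign-flip test, p = 0.781, adjusted p = 0.781 over 8 measures). Mitochondrial transcripts took 0.697% of counts in the median selected cell and 0.732% in the median other cell. The 35 long genes of other tissues, which this method can register as low intronic counts, took 0.122% ± 0.0579 of counts in selected cells and 0.173% ± 0.0728 in the others (SD, n = 8 hosts), lower in 7 of 8 hosts (exact p = 0.0312, adjusted p = 0.219). The smallest p that 8 hosts allow is 0.0078.

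All 8 hosts contributed early-response-high cells, in unequal shares. In the acalabrutinib hosts they were 6 of 45 cells in A7 (13.3%), 9 of 89 in A8 (10.1%), 4 of 52 in A10 (7.69%), 18 of 114 in A11 (15.8%) and 8 of 81 in A12 (9.88%). In the vehicle hosts they were 15 of 71 in V5 (21.1%), 6 of 55 in V7 (10.9%) and 30 of 130 in V9 (23.1%). V5 and V9 lay above every acalabrutinib host, while V7 lay among them. The 95% exact (Clopper-Pearson) intervals, which cover counting error only, ran from 2.14% to 18.5% in A10 and from 16.1% to 31.3% in V9.

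The share counts cells by the score of the selecting genes, which was set over all cells without regard to treatment, so its comparison between treatments concerns those 5 genes alone. The mean share was 11.4% ± 3.19 (SD, n = 5 hosts) with acalabrutinib and 18.4% ± 6.54 (SD, n = 3 hosts) with vehicle. The difference of -7.01 percentage points had p = 0.107 when all 56 assignments of hosts to treatments were enumerated (exact permutation, two-sided), where the smallest possible p is 0.018. It was -2.32 points (p = 0.5) when the top 10% of cells were taken and -10.7 points (p = 0.0952) without V7, which had the lowest share of the vehicle hosts, and -4.66 points (p = 0.286) without V9, which had the highest. Since drug-resistant and drug-sensitive cells of a host were counted together, the share in either genotype is not given by these values. Within a host the shares on different plates were close in A12 (9.80% and 10%) and apart in A11 (21.8% of 55 cells and 10.2% of 59) and V9 (16.7%, 31.8% and 25.9%).

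**Figure D2:**
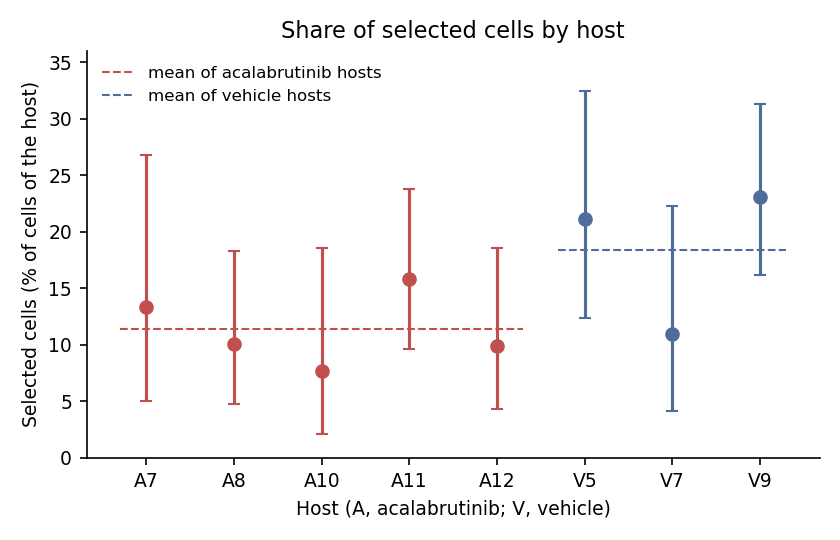
Early-response-high cells as a percentage of the cells of each host (y axis), with 95% exact intervals, for 5 acalabrutinib and 3 vehicle hosts (x axis); dashed lines are group means. V5 (21.1%) and V9 (23.1%) lie above every acalabrutinib host and V7 (10.9%) among them.

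The comparison of early-response-high cells with the other cells of their host asks what else the transcriptome holds in cells with these transcripts. It was made on 2 scales. On the first, counts of each class were summed per host and tested by quasi-likelihood in edgeR with the host as a block, and p-values were adjusted by the Benjamini-Hochberg method over 11979 genes, the 5 selecting genes left out. The sums hold 4 to 30 selected cells a host (3541623 to 26846727 counts) against 39 to 100 others (23236936 to 89971750 counts), and on this scale the median log2 fold change of all genes was -0.88. Without the host block it was -0.00225, and the cause of the shift was not tested. The second scale is the mean over cells of log2(CPM + 1), and its median difference over all genes was 0.01. Directions were unequal on it too: 6.99% of all genes were lower and 3.23% higher in at least 7 of 8 hosts. Of the 5691 genes counted in at least 25% of cells, 4.94% were lower and 4.71% higher. The part of sparse genes and of the number of cells in this was not tested.

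On the scale of sums 2 of the 11979 genes rose in early-response-high cells (0.0167%) and 29 fell (0.242%). Both genes that rose are widely expressed in LZ cells. *Cd83*, the immunoglobulin superfamily protein that marks LZ and activated B cells and prolongs the surface life of MHC class II and CD86, stood at 1625, 2174 and 2530 CPM in selected cells (lowest, median and highest of 8 hosts) and at 1093, 1241 and 1798 CPM in the others. *Samsn1*, an adaptor with SH3 and SAM domains that restrains B cell activation, stood at 290.4, 660.3 and 870.8 CPM in selected cells and at 162.3, 272.8 and 357.4 CPM in the others.

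For *Cd83* the sums were higher in the selected cells of 7 of 8 hosts. The exception was A10, which had 4 selected cells (1697 CPM against 1798). The log2 fold change was 0.79, or 1.72-fold, with an adjusted p of 0.0348 (edgeR). Per cell, the mean log2(CPM + 1) was higher by 1.89 ± 0.772 (SD, n = 8 hosts), in 8 of 8 hosts, from 0.43 in A12 to 2.75 in A7, and limma called this difference (adjusted p = 0.0112). The transcript was counted in 92.7% of selected cells and 84.7% of the others.

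For *Samsn1* the sums were higher in the selected cells of all 8 hosts, least in A8 (290.4 against 263.9 CPM). The log2 fold change was 1.24, or 2.35-fold, with an adjusted p of 0.0325 (edgeR). Per cell the difference was 2.72 ± 1.14 (SD, n = 8 hosts), from 0.62 in A8 to 4.10 in A7, with an adjusted p of 0.0514 (limma). It was counted in 88.5% of selected cells and 80.4% of the others.

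Both calls rest on nearly the whole set of hosts. When 1 host was left out at a time, *Cd83* kept log2 fold changes of 0.69 to 0.90 but was called only without A10, with adjusted p-values from 0.00295 to 0.114 (edgeR), and *Samsn1* kept 1.12 to 1.34 and was called only without A8 (adjusted p from 0.0381 to 0.0966). After cells were thinned to one depth the log2 fold changes were 0.68 and 1.04 (adjusted p = 0.0936 and 0.0867). Within the 14 plates that held at least 3 selected cells, mean log2(CPM + 1) was higher in the selected cells of 13 for *Cd83* (median difference 1.97) and of 13 for *Samsn1* (median difference 2.55).

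**Figure D3:**
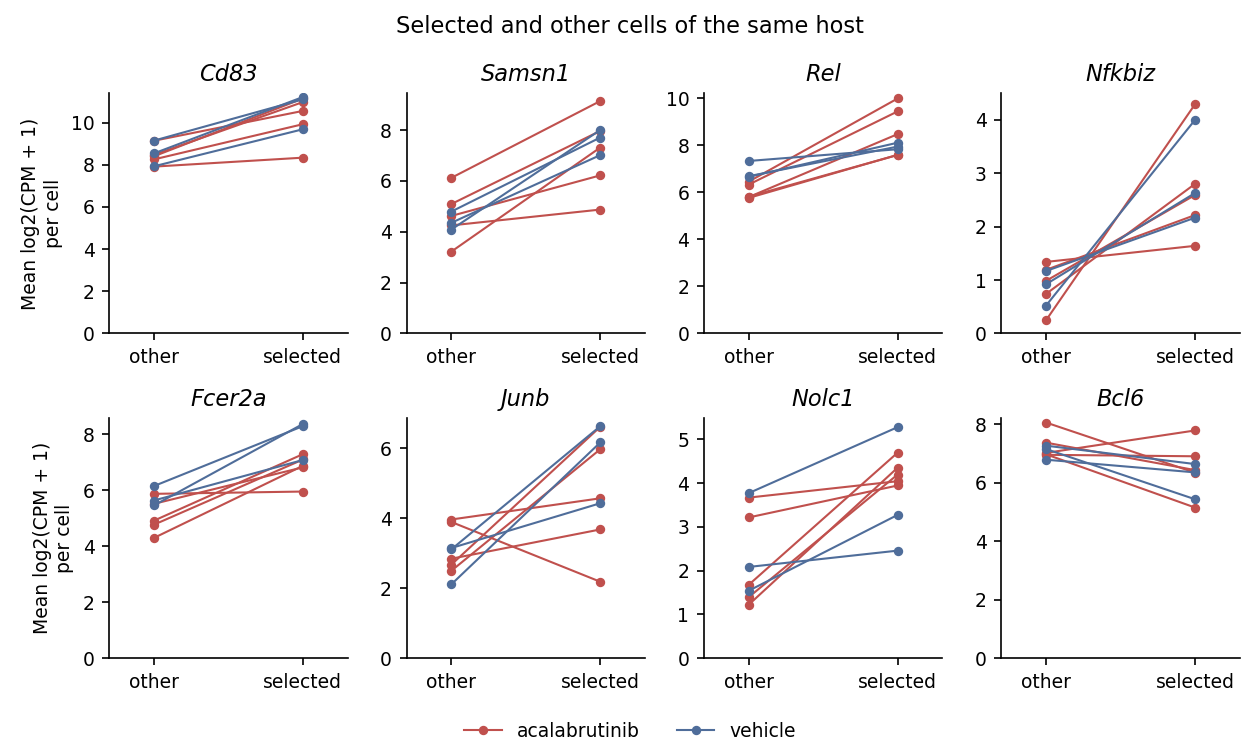
Mean log2(CPM + 1) per cell (y axis) of 8 genes in the other and the selected cells of each host (x axis), with a line for each of 8 hosts, coloured by treatment. *Cd83*, *Samsn1*, *Rel*, *Nfkbiz*, *Fcer2a* and *Nolc1* were higher in selected cells of 8 of 8 hosts and *Junb* of 7, and *Bcl6* was lower in 7. Of these only *Cd83* and *Samsn1* passed the edgeR test of summed counts across all genes. On the scale drawn here limma called only *Cd83* (adjusted p = 0.0112, limma), with *Samsn1* at 0.0514.

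The 29 genes that fell were all sparse. They had counts in 3.14% to 22.0% of the other cells (median 6.65%) and in 1.04% to 16.7% of the selected cells (median 2.08%), and 10 of them were counted in 1 selected cell. Of the 29, 11 carry predicted or clone names. Among those with full names, *Smpd3*, a neutral sphingomyelinase, had a count in 1 of 96 selected cells (1.04%) and in 43 of 541 others (7.95%), and *Sfxn3*, a mitochondrial serine transporter, in 1 and in 38 (7.02%). *Lrrc25*, *Cep131* and *Mss51* were likewise counted in 1 selected cell each, against 5.36%, 4.25% and 6.65% of the others. *Nol4l* had a count in 6.25% and 21.3% of cells. On the scale of the mean per cell, limma called none of the 29, and no fold is given for genes with so few counts. The number of cells summed, which was smaller for selected cells in every host, moves with these lower sums. Its part in these calls was not tested.

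The other immediate-early transcription factors were mostly sparse too. Of 26 listed, 11 passed the filter on low counts and none was called. In at least 7 of 8 hosts 3 (27.3%) were higher and none lower, where 3.23% of all genes were higher and 6.99% lower. These shares of all genes are the comparison for the counts of every list below. Their median difference per cell was 0.57, against 0.01 for all genes. *Junb*, an AP-1 subunit, stood at 390.4 ± 179.5 CPM in selected cells and at 178.9 ± 33.3 in the others (SD, n = 8 hosts), higher in 7 of 8 hosts, A10 excepted, with an adjusted p of 0.204 (edgeR). *Ier2*, an immediate-early nuclear protein, had a count in 36.5% and 12.6% of cells and was higher per cell in 7 of 8 hosts (adjusted p = 0.544). *Ier5*, another immediate-early gene, was counted in 2.08% and 3.70% of cells and was lower in 6 of 8 hosts (adjusted p = 0.27).

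The classical partners of the selecting genes were close to absent in both classes. *Fos* had a count in 4 of 96 selected cells (4.17%) and 8 of 541 others (1.48%), *Jun* in 3 (3.12%) and 8 (1.48%), and *Nr4a3*, the relative of *Nr4a1*, in 6 (6.25%) and 23 (4.25%). None of the 3 passed the filter. *Fosb* was counted in no selected cell, and *Egr4* in no cell at all.

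*Myc*, the factor that LZ cells express on positive selection, had a count in 42.7% of selected cells and 25.1% of the others. Per host the share was 38.1% ± 14.8 against 22.6% ± 13.4 (SD, n = 8 hosts), higher in 7 of 8 hosts (exact two-sided sign-flip p = 0.0547, adjusted p = 0.219 over 8 measures). After thinning to one depth the shares were 40.5% and 22.4%, again higher in 7 of 8 hosts (exact p = 0.0391 before adjustment). In CPM *Myc* stood at 168.1, 205.5 and 324.1 in selected cells (lowest, median and highest host) and at 10.4, 129.4 and 239.6 in the others, with a log2 fold change of 1.21 (adjusted p = 0.359, edgeR). The 2 ranges overlapped and the difference did not pass the test.

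The list of MYC targets and ribosome biogenesis genes leaned the same way without a call. Of its 30 genes, all tested, 26 (86.7%) had a higher mean in selected cells, against 51.7% of all genes, and 6 were higher in at least 7 of 8 hosts. The median difference per cell was 0.54. *Nolc1*, a nucleolar chaperone of ribosome assembly, stood at 277.8 ± 89.4 CPM against 128.5 ± 57.6 (SD, n = 8 hosts) and was higher per cell in all 8 hosts and in the sums of 7 (adjusted p = 0.144, edgeR), and *Ncl*, nucleolin, was also higher per cell in all 8 (664.9 against 570.8 CPM, adjusted p = 0.521). *Eif5a*, a translation factor, was higher per cell in 7 and in the sums of 5 (adjusted p = 0.419). The mTORC1 and metabolism list had a median difference of 0.35, with 4 of 22 genes higher and 1 lower in at least 7 hosts and no call. The smallest p of that list was that of *Slc2a1*, a glucose transporter, whose mean was higher in selected cells of 2 of 8 hosts (adjusted p = 0.208).

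NF-κB genes had high values in several members. Of 21 tested of 23 listed, 6 were higher in at least 7 of 8 hosts and none lower, the median difference was 0.46 per cell, and no gene was called. Many genes are sparse, so the share was also taken over the 5691 genes counted in at least 25% of cells, of which 4.71% were higher and 4.94% lower in at least 7 hosts; of 13 such NF-κB genes 4 were higher and none lower. *Rel*, the c-Rel subunit that B cells need for activation-driven growth, stood at 395.3, 751.0 and 1760 CPM in selected cells and at 402.3, 535.9 and 695.4 in the others (lowest, median and highest host). Per cell it was higher by 2.02 ± 1.02 in 8 of 8 hosts, and in the sums of 6 (log2 fold change 0.70, adjusted p = 0.225, edgeR). *Nfkbiz*, an atypical IκB that acts in the nucleus, was counted in 34.4% of selected cells and 14.8% of the others and was higher per cell in all 8 hosts by 1.90 ± 1.27, and in the sums of 7 (adjusted p = 0.335).

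The IκB genes, which encode inhibitors of NF-κB, had higher means per cell in selected cells, and none was called. *Nfkbia*, which encodes IκBα, was counted in 66.7% and 46.4% of cells and was higher in 7 of 8 hosts by 1.93 ± 1.88 (adjusted p = 0.277). For *Nfkbib*, *Nfkbie* and *Nfkbid* the differences were 0.81 ± 0.721 (higher in 7 of 8 hosts), 0.46 ± 1.39 and 0.67 ± 1.10, the last with a log2 fold change of -0.09 on the scale of sums (adjusted p = 0.874, 0.965 and 0.99). Other negative regulators differed by less than their spread between hosts. *Tnfaip3*, which encodes A20, was counted in 17.7% and 12.4%, with a difference of 0.34 ± 0.967 (adjusted p = 0.823), and for *Tnip1*, a partner of A20, and *Cyld*, a deubiquitinase, the differences were -0.39 ± 0.654 and -0.37 ± 1.29 (adjusted p = 0.706 and 0.786). Of the subunits, *Nfkb1* was higher per cell in 8 of 8 hosts (281.3 against 182.2 CPM, adjusted p = 0.63), and *Rela*, which encodes the p65 subunit, stood at 111.5 and 126.1 CPM (adjusted p = 0.821).

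Negative regulators of MAP kinase signaling and RNA decay factors, the feedback arm of the early response, had a median difference of 0.46. Of 17 tested of 22 listed, 3 were higher in at least 7 of 8 hosts, none lower, and none was called. *Zfp36*, tristetraprolin, which destabilizes AU-rich messages, stood at 223.5 ± 51.3 CPM against 130.1 ± 26.4 (SD, n = 8 hosts), higher in the sums of all 8 hosts and per cell in 7, and reached an adjusted p of 0.16 (edgeR). *Dusp2*, a MAP kinase phosphatase, was counted in 30.2% and 14.8% of cells (adjusted p = 0.715), and *Nab2*, the corepressor that EGR proteins induce and bind, in 12.5% and 2.40% (adjusted p = 0.931). Of the 17 tested, 14 (82.35%) had a higher mean per cell in selected cells, against 51.7% of all genes. *Zfp36l1*, a relative of *Zfp36*, stood at 525.2 and 396.5 CPM, higher in the sums of 7 of 8 hosts (adjusted p = 0.221). *Zfp36l2*, another relative, and *Trib1*, a pseudokinase, went the other way. *Zfp36l2* was counted in 3.12% and 9.24% of cells and was lower in the sums of 7 of 8 hosts (adjusted p = 0.264). *Trib1* was counted in 2.08% and 3.14% (adjusted p = 0.288).

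**Figure D4:**
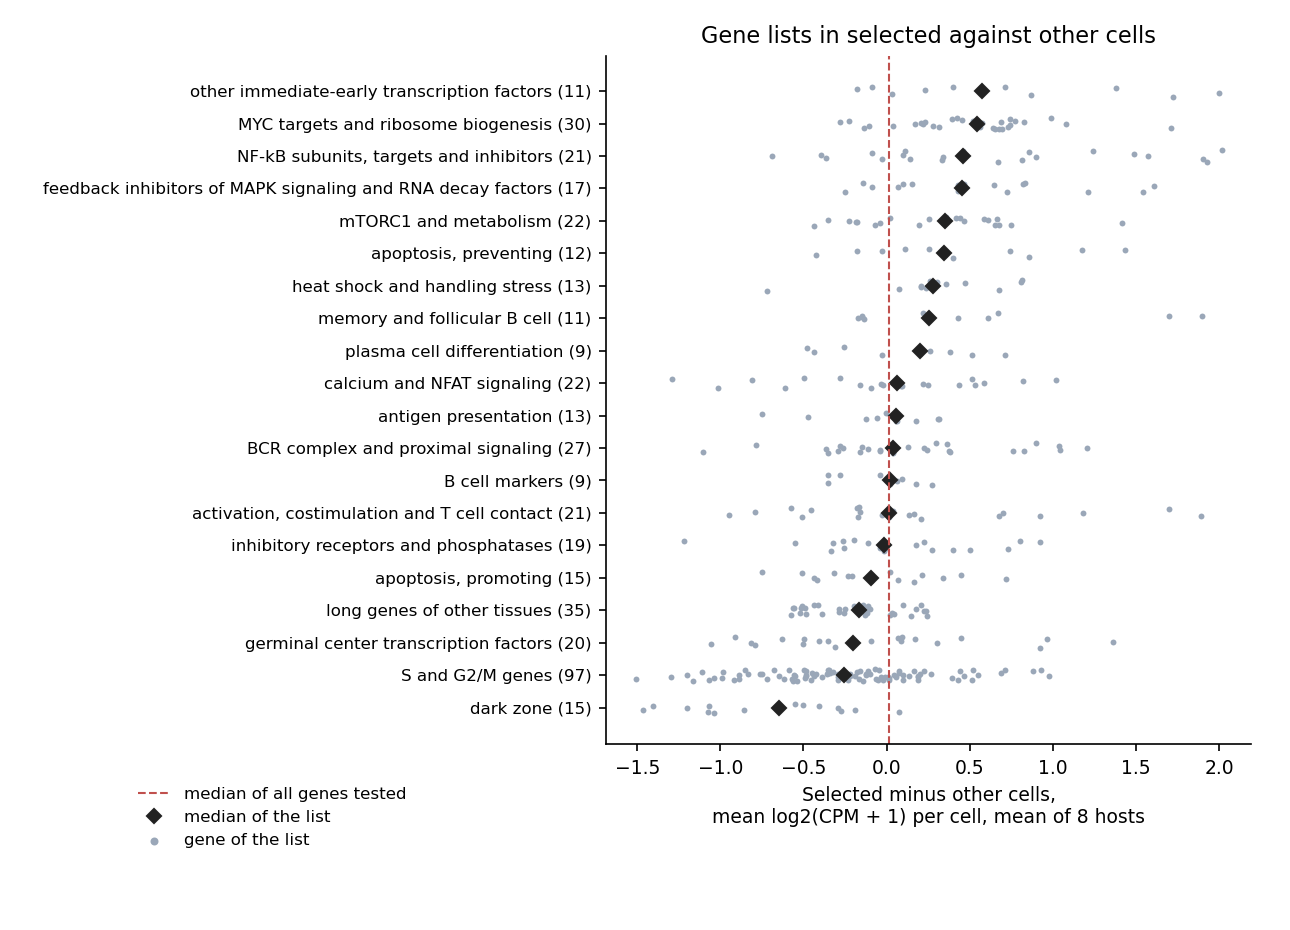
Difference between selected and other cells in mean log2(CPM + 1) per cell (x axis, mean of 8 hosts) for each tested gene (grey points) of the gene lists with at least 9 tested genes (y axis, number of tested genes in brackets), with list medians as diamonds. The dashed line is the median of all genes (0.01); list medians run from 0.57 for other immediate-early factors to -0.65 for the dark zone list.

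The signaling machinery itself gave no call. All 27 genes of the BCR complex and its proximal kinases and adaptors could be tested, with a median difference of 0.04, and 3 higher and none lower per cell in at least 7 of 8 hosts. *Btk*, the drug target, stood at 344.5 ± 171.6 CPM in selected cells and 368.9 ± 92.5 in the others (SD, n = 8 hosts; adjusted p = 0.859, edgeR). *Pik3ap1*, the BCAP adaptor that links the BCR to PI3 kinase, stood at 1176 and 992.4 CPM (adjusted p = 0.198). *Bank1*, a scaffold of BCR and calcium signaling, went the other way at 357.5 against 515.2 CPM, lower in the sums of 8 of 8 hosts and per cell in 5 (adjusted p = 0.239), and *Rasgrp3*, an exchange factor for Ras, stood at 403.2 and 505.0 CPM, lower in the sums of 7 (adjusted p = 0.459). *Cr2*, complement receptor CD21, stood at 278.5 and 162.7 CPM, higher per cell in 7 of 8 hosts. The 22 calcium and NFAT genes had a median difference of 0.06, with 1 higher (*Nfatc2*, in 8 of 8 hosts) and 1 lower (*Nfatc3*, in 8 of 8 hosts) in at least 7 hosts, neither of them called. The 19 inhibitory receptors and phosphatases had a median of -0.01, with 2 lower in at least 7 hosts and none higher. The smallest p among them was that of *Lair1*, a collagen receptor, which was lower in 7 of 8 hosts per cell though counted in 16.7% and 15.9% of cells (adjusted p = 0.0874).

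Among 21 tested activation and costimulation genes *Cd83* was the one call. The median difference was 0.02, and 2 were higher in at least 7 of 8 hosts. *Ly75* stood at 166.3 against 77.2 CPM, higher in the sums of 6 of 8 hosts (log2 fold change 1.11, adjusted p = 0.347, edgeR). *Cd86*, the costimulatory ligand of CD28, stood at 531.9 CPM against 401.0 (counted in 75% and 61.6% of cells, adjusted p = 0.482), *Cd40* at 210.4 against 180.5 (adjusted p = 0.822) and *Icam1*, the adhesion ligand of LFA-1, at 200.8 against 134.5 (adjusted p = 0.53). *Slamf1* was higher in 7 of 8 hosts (402.7 against 248.2 CPM, adjusted p = 0.411). Antigen presentation genes had a median difference of 0.05 over 13 genes, and none was called. Of these, 8 (61.5%) had a higher mean in selected cells, against 51.7% of all genes. *H2-Aa* stood at 1236 and 1202 CPM and *Cd74*, the invariant chain, at 1966 and 1890 CPM. *Ctsb* stood at 120.6 and 199.4 CPM, with a higher mean in selected cells of 2 of 8 hosts (adjusted p = 0.698, edgeR).

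A pair of surface receptors of follicular B cells had higher values in selected cells without passing the test. *Fcer2a*, which encodes CD23, stood at 401.4, 690.4 and 1046 CPM in selected cells and at 334.8, 456.6 and 563.7 in the others (lowest, median and highest host) and was higher per cell in 8 of 8 hosts by 1.90 ± 0.912 (SD) and in the sums of 7 (adjusted p = 0.202, edgeR). *Cxcr5*, the chemokine receptor that places B cells in follicles, stood at 525.6 and 326.2 CPM and was higher in 6 of 8 hosts (adjusted p = 0.264). Of the 11 tested genes of the memory and follicular list, which holds both, 1 was higher and 2 were lower in at least 7 of 8 hosts, the median difference was 0.25 and none was called. *Zbtb32*, a zinc finger repressor, had the smallest p of the list and was lower in 7 of 8 hosts, with counts in 3.12% and 3.14% of cells (adjusted p = 0.117, edgeR). *Ighd*, the IgD constant region, was also lower per cell in 7 of 8 (4.17% and 6.84% of cells, adjusted p = 0.414), while *Cd38*, an ectoenzyme, was higher in 6 (20.8% and 14.97%, adjusted p = 0.82).

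The dark zone (DZ) list gave the lowest median per cell among the lists with at least 9 tested genes, but not on the scale of sums, where its median of -0.91 was close to the -0.88 of all genes and that of the long genes was -1.31. Of its 15 tested genes 1 (6.67%) had a higher mean in selected cells, against 51.7% of all genes. In at least 7 of 8 hosts 6 (40.0%) were lower, against 6.99% of all genes. The median difference of the list was -0.65, and none of its genes was called. *Cxcr4*, the receptor that draws cells to the DZ, was counted in 38.5% and 56.0% of cells (adjusted p = 0.716, edgeR) and *Gcsam*, a GC signaling adaptor, in 46.9% and 62.5% (adjusted p = 0.494).

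Part of that list is mitotic genes. Of the 97 S and G2/M genes 29 (29.9%) had a difference above 0, against 51.7% of all genes. These 97 genes had a median difference of -0.26 and none was called. On the scale of sums their median was -0.68, above that of all genes, so their place relative to all genes turned with the scale. *Ccnb2*, a mitotic cyclin, stood at 83.2 and 170.5 CPM (adjusted p = 0.603). Phase calls did not separate the classes. Cells called G2/M were 25% of the selected and 25.7% of the others, cells called S 33.3% and 33.8%, and cells called G1 41.7% and 40.5%. Over hosts the share in G1 was 47.4% ± 28.5 against 41.3% ± 10.7 (SD, n = 8 hosts; exact two-sided sign-flip p = 0.617, adjusted p = 0.781), and with as few as 4 selected cells in a host the interval is wide.

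The transcription factors of the GC program showed no common direction. Of 20 tested, 3 were higher and 1 lower in at least 7 of 8 hosts, the median difference was -0.20 and none was called. *Batf*, an AP-1 factor of GC B cells, was counted in 31.2% of selected cells and 13.7% of the others and was higher per cell in 8 of 8 hosts by 1.36 ± 0.785 (SD) and in the sums of 7 (adjusted p = 0.302, edgeR). *Bcl6*, the repressor that defines the GC state, stood at 141.6, 236.4 and 498.9 CPM against 313.0, 380.8 and 509.6 and was lower in 7 of 8 hosts (log2 fold change -0.52, adjusted p = 0.298). *Irf4*, which is induced in graded fashion by BCR signals and favours plasma cell fate at high levels, was counted in 16.7% and 8.69% of cells and was higher per cell in 8 of 8 hosts but higher in the sums of 5, lower in A7, A8 and A11 (adjusted p = 0.859). Across all genes, 0.493% were higher per cell in all 8 hosts.

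For several lists the median on the scale of sums had the opposite sign, though above that of all genes (-0.88): it was -0.02 for mTORC1 and metabolism, -0.44 for calcium and NFAT, -0.35 for activation, -0.29 for anti-apoptotic and -0.78 for memory and follicular genes.

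Survival genes gave no call. Of 12 tested anti-apoptotic genes 9 had a higher mean, with a median difference of 0.34 and no call. The smallest p-values of the list were those of *Xiap*, a caspase inhibitor, at 438.7 against 291.6 CPM and higher in the sums of 7 of 8 hosts (adjusted p = 0.183, edgeR), and *Pim3*, a survival kinase, at 10.6 against 17.0 CPM and lower in 6 of 8 (counted in 5.21% and 6.47% of cells, adjusted p = 0.216). *Bcl2l1*, which encodes BCL-XL, stood at 213.3 and 76.6 CPM with counts in 29.2% and 21.6% of cells, higher in 5 of 8 hosts, and *Mcl1* at 117.9 and 81.9 CPM (adjusted p = 0.712, edgeR). Of 15 tested pro-apoptotic genes 7 (46.7%) had a higher mean, with a median of -0.09 and no call. *Bbc3*, which encodes PUMA, had the smallest p of these, with a higher mean in 2 of 8 hosts (adjusted p = 0.199). *Ccnd2*, a cyclin of B cell growth, was counted in 8.33% and 5.92% of cells (adjusted p = 0.939).

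The early-response-high cells were not all alike. Of the 96, 28 (29.2%) had counts of both *Egr1* and *Cd69*, 47 (49.0%) of *Egr1* without *Cd69*, 20 (20.8%) of *Cd69* without *Egr1* and 1 of neither. *Cd83* averaged 2120, 2186 and 2167 CPM in the first 3 of these subsets, against 1304 CPM as the mean of hosts in the other cells. *Samsn1* averaged 584.8, 707.1 and 872.0 CPM, against 273.8. *Rel* averaged 1194, 856.2 and 542.6 CPM, against 543.6, and was counted in 85.7%, 91.5% and 80% of these cells, against 73.4% of the unselected. *Nfkbiz* was counted in 46.4%, 34.0% and 20% of these cells, against 14.8% of the unselected. The subsets hold cells of different hosts in different numbers and were defined by the selecting genes, so these values are a description without a test.

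Treatment was then compared within the early-response-high cells, with 5 acalabrutinib and 3 vehicle hosts. No gene of 10021 tested was called in either direction (edgeR), while 165 had an unadjusted p under 0.05, 73 higher and 92 lower with acalabrutinib. DESeq2 called 9 higher and 9 lower. *Cd83* stood at 2401, 2261, 1697, 2087 and 1871 CPM in the selected cells of A7, A8, A10, A11 and A12 and at 2530, 2479 and 1625 in those of V5, V7 and V9, so the groups overlapped (log2 fold change -0.12, adjusted p = 0.9999, edgeR). *Samsn1* stood at 559.1, 290.4, 597.8, 736.9 and 722.8 CPM with acalabrutinib and 427.1, 870.8 and 802.2 with vehicle (log2 fold change -0.28).

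*Myc* within these cells stood at 257.8, 168.1, 176.9, 176.8 and 176.0 CPM with acalabrutinib and at 234.2, 279.4 and 324.1 with vehicle. A8, A10, A11 and A12 lay below every vehicle host and A7 between them, and the difference was not called (log2 fold change -0.56, unadjusted p = 0.187, edgeR). *Btk* stood at 282.9 ± 161.8 CPM (SD, n = 5 hosts) and 447.3 ± 159.4 CPM (SD, n = 3 hosts), with overlapping hosts (log2 fold change -0.66). *Fos* was counted only in the selected cells of A10, A11 and A12. The test of whether the difference between selected and other cells itself differed between treatments called none of 11979 genes (edgeR; 307 at an unadjusted p under 0.05), and DESeq2 called 163 and 343.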

How the data were processed

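The deposited table holds whole-number counts for 56691 genes and 637 cells. Per the labels and the study's methods, reads were mapped with STARsolo 2.7.10a to GRCm39 release 107 (the submitters' processing notes also name GRCm38), counting overlap with exons or introns and removing copies by exact position, since SMART-seq2 has no molecular identifiers. Cells held 132412 to 1825420 counts. The study's limits of 5% mitochondrial counts and 200 genes removed 0 cells. Each cell had its own well and no doublet caller was run. Names of all cells differ.

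Counts were summed per host and class, and fitted with edgeR 4.0.16 (TMM scaling, filterByExpr, host block, Benjamini-Hochberg adjustment) in R 4.3.3, with hosts of at least 3 selected cells. Same-host sums come from the same animal. limma 3.58.1 used the mean of log2(CPM + 1) per cell, and DESeq2 1.42.0 was an alternative. Seurat 5.3.0 called phases from its gene lists (43 S, 54 G2/M). Shares were compared with Python 3.11.15 and SciPy 1.17.1. Thinning drew each cell to 459128 counts, leaving out 64 cells. The fits were also run on simulated sums with known changes. These sums were drawn without host differences and without single cells, so they do not check the lower calls of sparse genes. P-values measure the spread between these hosts.

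The cells, the 23 gene lists, the named genes and the tests were chosen with earlier results of these data known. Named are 18 fixed genes, up to 10 called genes a direction that moved alike in at least 7 hosts, and up to 3 genes of smallest p per list. Other list genes were named after their values were seen. A symbol with several entries was taken at the entry with most counts. Alternatives varied the share of cells taken, the selecting genes, depth, scaling, filter, tool, block and hosts. Genotypes and clusters were not analysed here.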

Additional observations from a re-analysis of the deposited data

Results flagged for a closer look

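In 2 results, the 5 acalabrutinib hosts included 1 far from the others, of 38 results tested this way, where chance alone flags about 1 in 20. For *Jun* the difference between selected and other cells in mean log2(CPM + 1) was 0.94 in A12 and between -0.22 and 0 in the other 4, and *Jun* was counted in 3 selected cells in all. For *Irf4* it was 1.63 in A10, which had 4 selected cells, and between 0.19 and 0.44 in the other 4.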

How the results depend on the processing

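The count of 2 genes that rose and 29 that fell in selected cells changed with nearly every choice. It was 109 and 2784 with DESeq2, 5 and 49 with 10% of cells selected, 1 and 1 with 20%, 3 and 16 when *Cd69* was left out of the selection, 0 and 7 when cells were selected again after thinning, 0 and 3 after thinning alone, 0 and 0 with no filter on low counts (183 and 4755 at an unadjusted p under 0.05), 1 and 2 with hosts of at least 5 selected cells, and 1 and 0 with limma on the mean per cell. Without the host as a replicate block, which pairs sums of one animal, it was 2 and 44. RLE size factors gave 2 and 29. Leaving out each host in turn gave 0 to 1 that rose and 0 to 13 that fell. Restricted to the 5691 genes counted in at least 25% of cells, a choice made after the data were seen, it was 0 and 0 with edgeR (*Cd83* and *Samsn1* at an adjusted p of 0.0902; 423 at an unadjusted p under 0.05) and 2 and 0 with limma, again *Cd83* and *Samsn1*. The cause of these shifts was not tested, but both genes kept their direction under all 21 alternatives.

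Within selected cells the treatment count of 0 and 0 became 9 and 9 with DESeq2, and the test of a differing effect 163 and 343; leaving out hosts gave 0 and 0. The difference in share stayed between -10.7 and -4.66 points when a host was left out (p from 0.0952 to 0.286), and neither it nor, after adjustment, any cell measure passed the threshold under the alternatives run. Thinning was run for 5 of the 8 measures, and there the share of cells with a *Myc* count had an exact p of 0.0391 before adjustment. Selected cells number 96, so genes in few cells are the least certain.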

Other observations

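Genes of plasma cell differentiation, of which only *Irf4* is described above, had a median difference of 0.20 over 9 tested genes, with no call. The smallest p was that of *Creb3l2*, a factor of the secretory pathway, with a higher mean in selected cells of 1 of 8 hosts (adjusted p = 0.239, edgeR). *Prdm1*, which encodes the plasma cell regulator BLIMP-1, had a count in 8.33% of selected cells and 5.92% of the others, *Xbp1* in 57.3% and 55.8%, and *Jchain* in 93.8% and 90.8%. Heat shock and handling stress genes had a median of 0.28 over 13 tested genes, with none called. Of these, 12 (92.3%) had a higher mean in selected cells, against 51.7% of all genes. *Hsp90ab1*, a chaperone, stood at 995.8 and 849.6 CPM and was higher per cell in 7 of 8 hosts, *Hspa8* stood at 671.8 and 656.8 CPM, and *Gadd45b*, a stress-induced gene, was counted in 16.7% and 28.1% of cells and was lower in 7 of 8 hosts. On the scale of sums the medians were -0.20 and -0.24, above the -0.88 of all genes. Their part in the results above was not tested.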
